A study of Macaca mulatta with 6 samples.

Results

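C/D box small nucleolar RNAs (snoRNAs), other than the imprinted repeats and a few genes of chromosomes 16 and 19, were examined in small RNA libraries from the testis of juvenile wild-type rhesus monkeys. The members are the genes of the small RNA count table whose name starts with SNORD, without SNORD112 to SNORD116, SNORD49 and SNORD65 of chromosome 16, and the snoRNAs of chromosome 19 in a short stretch around SNORD33. The rule took 159 of 3083 gene rows, or 159 of 276 rows with a SNORD name, and they carry 90 distinct names. SNORD35, at 44886147 to 44886234 of chromosome 19 in the build rheMac8, is the member nearest to that excluded stretch. Of the 159 rows, 114 had enough counts to be tested, and the other 45 are described at the end.

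The vehicle group held animals 7, 9 and 11, aged 24, 14 and 15 months, which received vehicle for 48 h. The gonadotropin group held animals 8, 10 and 12, aged 22, 14 and 15 months, which received FSH and LH, the pituitary gonadotropins, as pulsed infusions over 48 h. Each library came from the right testis of 1 animal, cut into fragments and frozen, so all cell types of the juvenile testis are in it. The comparison asks which small RNAs change when the testis first receives the hormone drive of puberty. Libraries are called by group and animal number.

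A C/D box snoRNA carries the short C and D sequence boxes and binds the proteins fibrillarin, NOP56, NOP58 and SNU13. Most of these RNAs pair with ribosomal RNA (rRNA) and direct fibrillarin to methylate the ribose of 1 target base. A few act in cleavage or folding of the rRNA precursor, some guide the spliceosomal RNA U6, and others have no known target. In primates most lie in introns of host genes, often genes of ribosomal proteins, translation factors or long non-coding RNAs such as GAS5 and SNHG1, and are cut out of the spliced intron. Growing cells make ribosomes in large number. In the testis, FSH acts on Sertoli cells and LH on Leydig cells.

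The small RNA table held 2146412 to 3170784 counts per library, of which miRNA genes took 91.9% to 96.9%. The members took 1.29% of the counts in vehicle 7 (Wilson 95% interval 1.27% to 1.30%), 3.95% in vehicle 9 (3.93% to 3.97%) and 3.25% in vehicle 11 (3.23% to 3.28%). They took 3.20% in gonadotropin 8 (3.17% to 3.22%), 2.73% in gonadotropin 10 (2.71% to 2.75%) and 1.95% in gonadotropin 12 (1.94% to 1.97%). The intervals cover counting error only, and the spread between animals of the vehicle group was far wider than they are. The mean share was 2.83% ± 1.38 (SD, n = 3) with vehicle and 2.63% ± 0.628 (SD, n = 3) with gonadotropin, and both extremes of the 6 libraries were vehicle libraries. The difference of -0.203 percentage points became -0.975 without vehicle 7 and 0.357 without vehicle 9. In bulk tissue, fewer cells of a type and less RNA per cell cannot be told apart.

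Vehicle 7 and vehicle 9 stood apart from the other libraries in these genes. For each gene the deviation of a library was taken as its log2 CPM minus the mean of that gene over the 6 libraries. Over the 114 tested members the median deviation was -0.64 in vehicle 7, 0.72 in vehicle 9 and 0.15 in vehicle 11, and 0.16, -0.00 and -0.27 in gonadotropin 8, 10 and 12. Vehicle 7 was the lowest library for 65 members (57.0%) and vehicle 9 the highest for 72 (63.2%), with both true of 50. Among all 717 tested small RNA genes the same held for 31.0% and 28.7%. The first principal component of the members held 69.6% of their variance and ran from -10.65 in vehicle 7 to 8.21 in vehicle 9, with the other 4 libraries between -3.51 and 2.79.

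**Figure D1:**
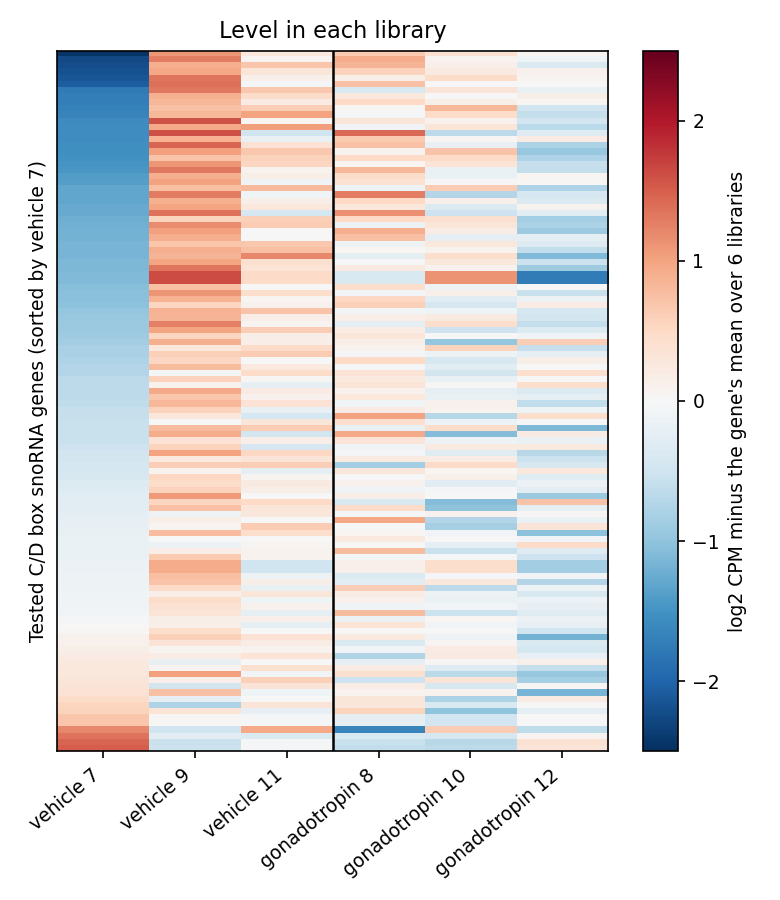
Each row is 1 of the 114 tested C/D box snoRNA genes and each column 1 library, with colour for log2 CPM minus the gene's mean over the 6 libraries and rows sorted by vehicle 7. Most rows are blue in vehicle 7 and red in vehicle 9, while a small set at the bottom is red in vehicle 7.

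Other classes of the table differed in how these libraries deviated. The median deviation of the tested H/ACA box snoRNAs, which guide pseudouridylation, was -0.13 in vehicle 7 and 0.31 in vehicle 9. That of SNORD112 to SNORD114, the imprinted C/D box genes of the DLK1-DIO3 domain, was -1.12 and 1.00. SNORD115 and SNORD116, the imprinted repeats of the SNURF-SNRPN domain, had 0.04 and 0.76. All tested genes that are no members had 0.02 and 0.00. TMM scaling, used for these values, places the bulk of the tested genes near a common level. Medians near 0 in so large a set thus follow largely from the scaling. These medians describe single libraries and were not tested.

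**Figure D2:**
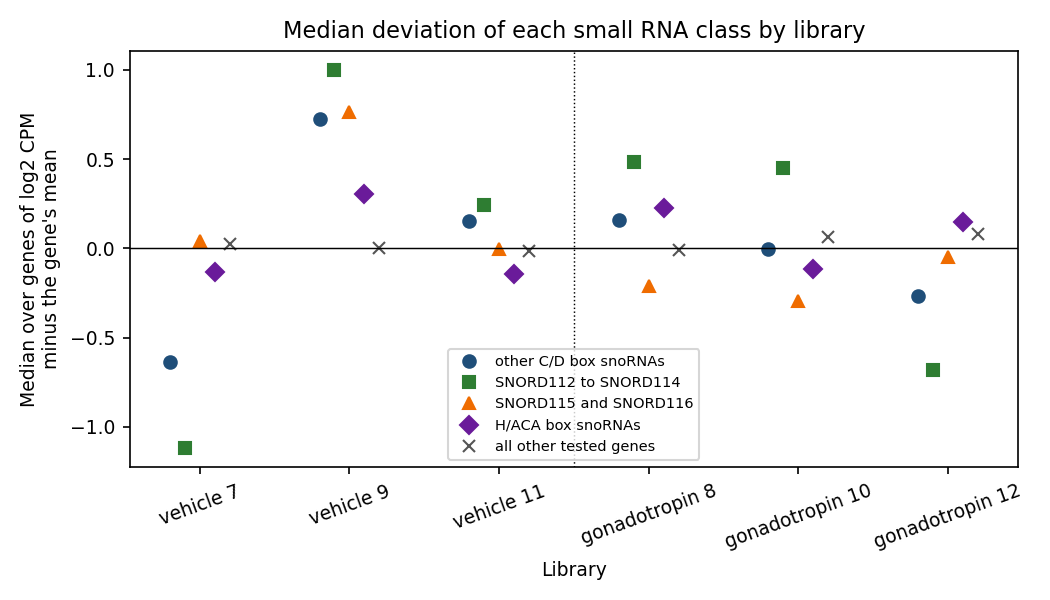
The median over genes of log2 CPM minus the gene's mean is plotted for 5 small RNA classes in each of the 6 libraries, with vehicle on the left of the dotted line. The C/D box members run from -0.64 to 0.72, both in the vehicle group. All other tested genes stay near 0, which the TMM scaling largely sets.

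The 2 vehicle libraries at the extremes differed from the rest in other measures as well. Vehicle 7 came from the oldest animal, aged 24 months, and had the lowest TMM scaling factor, 0.784, against 0.987 to 1.16 in the others. Of the miRNA markers of other cells, the 7 arms for blood summed to 4132 CPM in vehicle 7, 6014 in vehicle 9 and 10415 in vehicle 11. They summed to 10033 CPM in gonadotropin 8, 8073 in gonadotropin 10 and 8514 in gonadotropin 12. The endothelial miR-126 stood at 4729, 8668 and 5363 CPM with vehicle and at 12728, 7871 and 7382 CPM with gonadotropin. Both markers were lowest in vehicle 7. The 5 arms of the meiotic germ cell miRNAs miR-34b, miR-34c and miR-449a summed to 12.8 CPM in vehicle 9 and to between 42.9 and 121 CPM in the other 5 libraries. Markers of muscle (5 arms, 28.3 to 44.2 CPM), duct epithelium (6 arms, 47.0 to 87.7 CPM) and nerve (2 arms, 32.1 to 90.3 CPM) were low in each library. Vehicle 9 was also the lowest library for duct epithelium and nerve, and vehicle 11 the lowest for muscle. None of these marker arms was at 0 in all libraries, and the marker miR-202 of the gonad was not analysed here. Gonadotropin 8, from the animal next in age at 22 months, had a median deviation of 0.16 over the members. The part of age, scaling and cell makeup in how these libraries deviated was not tested. Age as a covariate and other scalings were fitted for the comparison of the groups only.

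The comparison of gonadotropin with vehicle gave no called member. At an adjusted p of 0.05 over the 717 tested genes, edgeR's quasi-likelihood test called 0 of the 114 members, with a background of 0.139% of all tested genes. At an unadjusted p of 0.05 it found 0 members as well, against 4.46% of all tested genes, and DESeq2 also called 0 members at either level. The smallest unadjusted p among the members was 0.117 and the smallest adjusted p 0.998. The 2 groups did not overlap in 1 member, SNORD46 of chromosome 1, against 8.23% of all tested genes.

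The log2 fold change of gonadotropin over vehicle was below 0 in 85 members and above 0 in 29. That is 74.6% below 0, against 51.9% of all tested genes. The median was -0.22 over the members and -0.02 over all tested genes, with members between -0.97 and 0.62. Without vehicle 9 the median was 0.07, with 52 members below 0 and 62 above, so the direction of the median rests on that library. Without vehicle 7 it was -0.43, with 102 of 116 tested members below 0 and 10 at an unadjusted p under 0.05, still with 0 called and a smallest adjusted p of 0.724. The median of all 738 genes tested in that fit was -0.007. Their share at an unadjusted p under 0.05 was not counted, so the 10 members have no background beside them. Scaled by library totals, the split was 68 below and 46 above 0, with a median of -0.14, while the median of all tested genes moved to 0.09.

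How small an effect could have been missed is set by the spread between animals. The median standard error (SE) of a member's log2 fold change was 0.50. The 95% interval lay within 1 log2 unit on both sides of 0 for 14 members, so for the other 100 a 2-fold difference in at least 1 direction lies inside the interval. The median SD of log2 CPM between animals was 0.747 with vehicle and 0.423 with gonadotropin, and 0.536 and 0.396 over the tested genes that are no members. In counts simulated for all 717 tested genes with their means and library sizes, the test recovered 7% of genes given a 2-fold change. It recovered 56% of those given a 4-fold change. The changed genes were drawn from the whole set, not from the members. The median SE over all tested genes was 0.441, below that of the members, so these rates may be too high for the members.

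**Figure D3:**
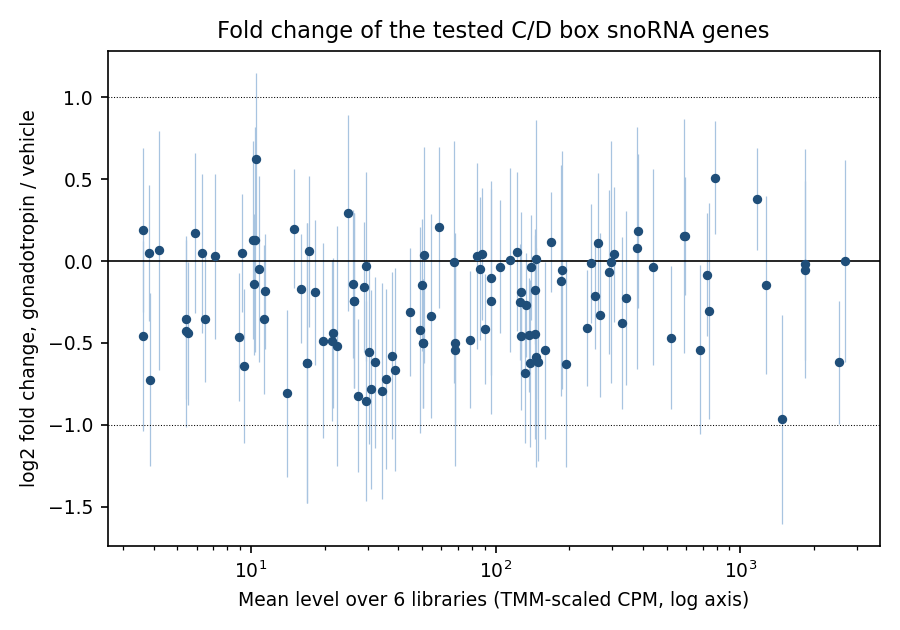
Each point is 1 of the 114 tested C/D box snoRNA genes, at its mean level over 6 libraries (log axis) and its log2 fold change of gonadotropin over vehicle, and bars are ± 1 SE. The points lie between -0.97 and 0.62, 85 of them below 0, at low and high levels alike.

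Levels are compared between genes as TMM-scaled CPM per kb of gene, since the members are 57 to 237 bases long with a median of 76. The levels ran from 25.2 to 36514 CPM per kb with a median of 816. They rest on read counts, and how far they follow the amounts of the whole RNAs was not tested. By counts summed over the 6 libraries, without regard to length, SNORD69 was the largest member. Per length, the most abundant member was SNORD2 of chromosome 2. It guides large subunit rRNA methylation from an intron of the translation factor gene EIF4A2. It was followed by SNORD69 (34633), SNORD31 (26551) and SNORD100 (24274 CPM per kb). Below these stood the SNORD2 row of chromosome 9 (21801), SNORD81 of an unplaced scaffold (16539) and the SNORD74 rows of chromosome 1 (14618) and chromosome 12 (13774 CPM per kb). SNORD37 (11242) and SNORD52 (10905 CPM per kb) closed the first 10. Of these 10 rows, SNORD100 guides the small subunit rRNA and the other 9 the large subunit rRNA.

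**Figure D4:**
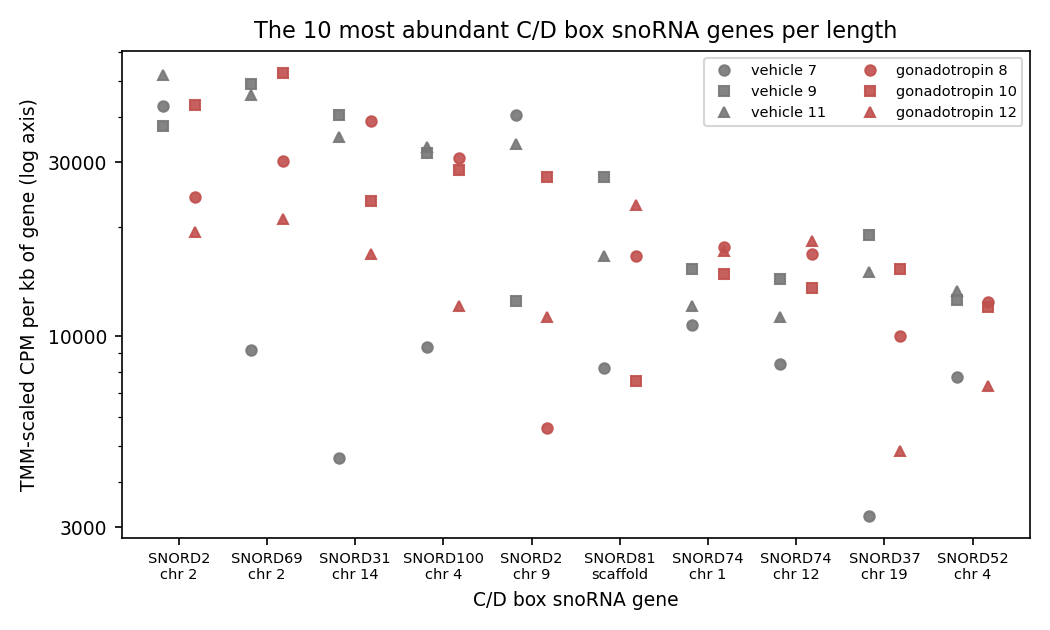
TMM-scaled CPM per kb of gene (log axis) is shown for the 10 most abundant C/D box snoRNA genes, with vehicle libraries in grey and gonadotropin libraries in red. Vehicle 7 is the lowest point for 6 of the 10 genes, and vehicle and gonadotropin points overlap in each.

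Guides of the large subunit rRNA were the largest list, with 70 rows and 54 tested. Of these, 41 had a log2 fold change below 0 and 13 above, with a median of -0.15, and 0 were called. SNORD2 (ENSMMUG00000037192, 192838015 to 192838083 of chromosome 2) stood at 2955 CPM in vehicle 7, 2609 in vehicle 9 and 3591 in vehicle 11. It stood at 1668 CPM in gonadotropin 8, 2963 in gonadotropin 10 and 1330 in gonadotropin 12, and the libraries of the sentences that follow come in this order. Gonadotropin 8 and 12 were below the 3 vehicle libraries and gonadotropin 10 lay among them. The means were 3052 ± 498 and 1987 ± 862 CPM (SD, n = 3 each), with a log2 fold change of -0.62 (SE 0.38, 95% interval -1.48 to 0.24, unadjusted p = 0.137 by edgeR).

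SNORD87, a large subunit guide hosted by the long non-coding gene SNHG6 (65071602 to 65071690 of chromosome 8), had the smallest p of the members. Its levels were 17.9, 50.8 and 36.0 CPM with vehicle and 24.1, 20.1 and 15.1 CPM with gonadotropin. Vehicle 9 and 11 were above the gonadotropin libraries, and vehicle 7 was among them. The log2 fold change was -0.82 (SE 0.47, 95% interval -1.90 to 0.25, unadjusted p = 0.117 and adjusted p = 0.998 by edgeR). It was -1.11 without vehicle 7 and -0.50 without vehicle 9, not called in either case.

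SNORD74, a large subunit guide of GAS5, pointed the other way in both of its tested rows. The row of chromosome 1 (193698595 to 193698674) had 858, 1222 and 968 CPM with vehicle and 1408, 1187 and 1374 CPM with gonadotropin. The row of chromosome 12 (122414654 to 122414710) had 481, 818 and 645 CPM with vehicle and 956, 773 and 1038 CPM with gonadotropin. In each row the lowest gonadotropin library lay just under vehicle 9, so the groups overlapped by that library alone. The log2 fold changes were 0.38 (SE 0.31) and 0.51 (SE 0.34), with edgeR unadjusted p of 0.254 and 0.176. Both stayed above 0 in each of the 17 alternative analyses, from 0.29 to 0.49 and from 0.36 to 0.65.

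SNORD69, SNORD37 and SNORD52 are further abundant large subunit guides, and their groups overlapped. SNORD69, which shares a stretch of 2.35 kb with the small subunit guide SNORD19B, had 705, 3775 and 3525 CPM with vehicle and 2321, 4058 and 1617 CPM with gonadotropin. Vehicle 7 was more than 2-fold below every other library. The means were 2668 ± 1705 and 2665 ± 1256 CPM (SD, n = 3 each) and the log2 fold change -0.00 (SE 0.62, 95% interval -1.41 to 1.41), with -0.43 without vehicle 7 and 0.30 without vehicle 9. SNORD37, in an intron of the elongation factor gene EEF2, had 213, 1255 and 990 CPM with vehicle and 662, 1011 and 321 CPM with gonadotropin. Here too vehicle 7 was the lowest library, and gonadotropin 12 came next. Its log2 fold change was -0.30 (SE 0.66). SNORD52, hosted by SNHG32, varied less, with 520, 842 and 893 CPM against 832, 808 and 489 CPM and a log2 fold change of -0.08 (SE 0.38).

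Of the remaining large subunit guides, the SNORD18 row at 68872775 of chromosome 7 had a log2 fold change of -0.73 (SE 0.53) at no more than 5.8 CPM in any library. SNORD15 at 67546427 of chromosome 14, from a ribosomal protein gene, had 0.20 (SE 0.36). SNORD21 had 0.15 (SE 0.36), from 392, 580 and 717 CPM with vehicle to 775, 534 and 567 CPM with gonadotropin. SNORD58 at 38468765 of chromosome 18 had 0.29 (SE 0.60), from 6.97, 40.9 and 19.2 CPM to 34.9, 22.4 and 25.5 CPM. Each of these intervals included 0, and in SNORD58 vehicle 7 was the lowest library and vehicle 9 the highest.

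Guides of the small subunit rRNA gave 38 rows, of which 30 were tested. The log2 fold change was below 0 in 20 and above 0 in 10, with a median of -0.10, and 0 were called. SNORD100, the most abundant of them, lies in an intron of the ribosomal protein gene RPS12 (134642259 to 134642334 of chromosome 4). It had 712, 2423 and 2507 CPM with vehicle and 2335, 2171 and 921 CPM with gonadotropin, so that vehicle 7 and gonadotropin 12 were the low libraries. Its log2 fold change was -0.06 (SE 0.55, 95% interval -1.31 to 1.19).

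SNORD105 (10114130 to 10114214 of chromosome 19) had the highest log2 fold change among all tested members. Its levels were 6.10, 11.6 and 6.80 CPM with vehicle and 19.6, 5.43 and 13.1 CPM with gonadotropin. Gonadotropin 8 and 12 were the highest libraries and gonadotropin 10 the lowest. The log2 fold change was 0.62 (SE 0.53, 95% interval -0.58 to 1.82, unadjusted p = 0.269 by edgeR). SNORD45 of chromosome 4 had the smallest p of the small subunit list, with 11.3, 15.0 and 8.0 CPM against 9.22, 9.27 and 3.48 CPM and a log2 fold change of -0.64 (SE 0.47). SNORD82, hosted by the nucleolin gene NCL, had 173, 515 and 380 CPM against 539, 264 and 410 CPM and a log2 fold change of 0.18 (SE 0.47). SNORD11B, hosted by NOP58, had 62.7, 268 and 238 CPM against 146, 152 and 92.0 CPM and a log2 fold change of -0.55 (SE 0.54).

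The list of rRNA precursor processing factors held 6 rows, of which 2 SNORD14 rows of chromosome 14 were tested. SNORD14 pairs with the small subunit rRNA and is needed for its maturation. The row at 115894880 had 15.2, 26.2 and 12 CPM with vehicle and 16.8, 7.67 and 6.18 CPM with gonadotropin, with a log2 fold change of -0.81 (SE 0.51). The row at 115895313, in the same stretch of 0.521 kb, had 5.23, 6.82 and 6.40 CPM against 10.8, 3.84 and 4.64 CPM, with a log2 fold change of 0.05 (SE 0.49). Gonadotropin 8 was the highest gonadotropin library in both rows.

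Guides of U6 had 4 rows, of which the SNORD67 rows of chromosome 14 at 19261603 and 19269331 were tested. Both rows had the same count in every library, 21.8, 46.7 and 16.8 CPM with vehicle and 26.5, 32.9 and 12.8 CPM with gonadotropin. They are near-identical copies, so the reads of 1 RNA may stand in the table more than once. The log2 fold change of either row was -0.24 (SE 0.53).

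The single or few-copy C/D box snoRNAs of the imprinted SNURF-SNRPN domain gave 7 rows and 4 tested, all with a log2 fold change below 0 and a median of -0.45. None was called. SNORD64 (1871093 to 1871159 of chromosome 7) had 204, 361 and 243 CPM with vehicle and 223, 226 and 161 CPM with gonadotropin, with a log2 fold change of -0.41 (SE 0.35). SNORD107, in the same stretch of 3.17 kb, stood 14.5-fold below it per length and its log2 fold change was -0.19 (SE 0.44). The SNORD109A rows at 1925268 and 2182021 had the same counts, 79.7, 49.8 and 48.0 CPM against 41.7, 34.8 and 48.7 CPM, with a log2 fold change of -0.50 (SE 0.39). Unlike most members, SNORD109A was highest in vehicle 7. The sign of SNORD64 and SNORD109A held in each of the 17 alternative analyses.

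The role lists left 34 rows without a list, of which 22 were tested, 17 below 0 and 5 above, with a median of -0.45. SNORD90 (16215887 to 16215997 of chromosome 15) had 108, 211 and 168 CPM with vehicle and 127, 117 and 59.9 CPM with gonadotropin. Vehicle 7 lay between the gonadotropin libraries. The log2 fold change was -0.68 (SE 0.42, 95% interval -1.66 to 0.29, unadjusted p = 0.144 by edgeR). SNORD73, from an intron of RPS3A, was the member with the deepest deviation in vehicle 7, -2.44, with 86.3 CPM there. Vehicle 9 and 11 had 1014 and 564 CPM, and the gonadotropin libraries had 741, 612 and 496 CPM. It was singled out after its values were seen.

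By host gene, the lists had 0 called members each, against the same background of 0.139%. Ribosomal protein hosts held 30 tested rows, 24 below 0 and 6 above, with a median log2 fold change of -0.18. Hosts of translation factors held 5, 4 below 0 and 1 above (median -0.30), and hosts of nucleolar proteins 6, with 3 on each side (median -0.12). Among the long non-coding hosts, GAS5 held 5 tested rows with 3 below 0 (median -0.15), SNHG1 held 9 with 4 below 0 (median 0.04), and the other long non-coding hosts together held 8 with 6 below 0 (median -0.09). Hosts were assigned by snoRNA name, so a row that lies elsewhere in the genome keeps the host of its name. A name on no host list was left out of these counts. SNORD69 is such a name, though it lies beside SNORD19B of the nucleolar protein hosts.

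Hosts also differed in how far vehicle 7 departed. The median deviation of vehicle 7 was -1.10 for nucleolar protein hosts and -1.0 for ribosomal protein hosts. It was -0.73 for SNHG1, -0.70 for the other long non-coding hosts, -0.66 for GAS5 and -0.52 for translation factor hosts. It was 0.27 for the imprinted SNURF-SNRPN members, which rests on 4 rows with a pair of identical ones among them. These medians describe 1 library and were not tested.

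SNHG1 shows how unequal the read counts of snoRNAs of 1 host transcript were. Whether the amounts of the whole RNAs differed as much was not tested. Its 8 tested members lie within 2.72 kb of chromosome 14 (11445594 to 11448312), in the order SNORD25, SNORD26, SNORD27, SNORD28, SNORD29, SNORD30, SNORD31 and SNORD22. Per length, the level of SNORD31 (26551 CPM per kb) was 522-fold that of SNORD28 (50.9 CPM per kb). SNORD25 (2435), SNORD26 (1890), SNORD29 (1882), SNORD30 (2667) and SNORD27 (4241 CPM per kb) lay between, and SNORD22 (281 CPM per kb) was low. Over the 24 loci in which tested members lie within 5 kb of each other, with 61 members, the median ratio of the highest to the lowest level per length was 5.04, and the next widest after SNHG1 was 82.4 for SNORD100 over SNORD101.

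The libraries did not move together along this host. SNORD31 had 322, 2785 and 2424 CPM with vehicle and 2681, 1622 and 1159 CPM with gonadotropin. SNORD30 had 35.3, 391 and 144 CPM against 251, 150 and 149 CPM. SNORD25, at the other end, had 148, 166 and 169 CPM against 198, 167 and 160 CPM. The deviation of vehicle 7 was -2.21 in SNORD31 and -0.18 in SNORD25. In SNORD22 the order turned over, with 81.9, 26.2 and 24.4 CPM against 24.1, 23.3 and 32.8 CPM, and vehicle 7 deviated by 1.36. The log2 fold changes of the 8 members ran from -0.72 (SNORD22, SE 0.55) to 0.12 (SNORD25, SE 0.31). Without vehicle 7, SNORD22 had 0.10 and SNORD31 -0.50.

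**Figure D5:**
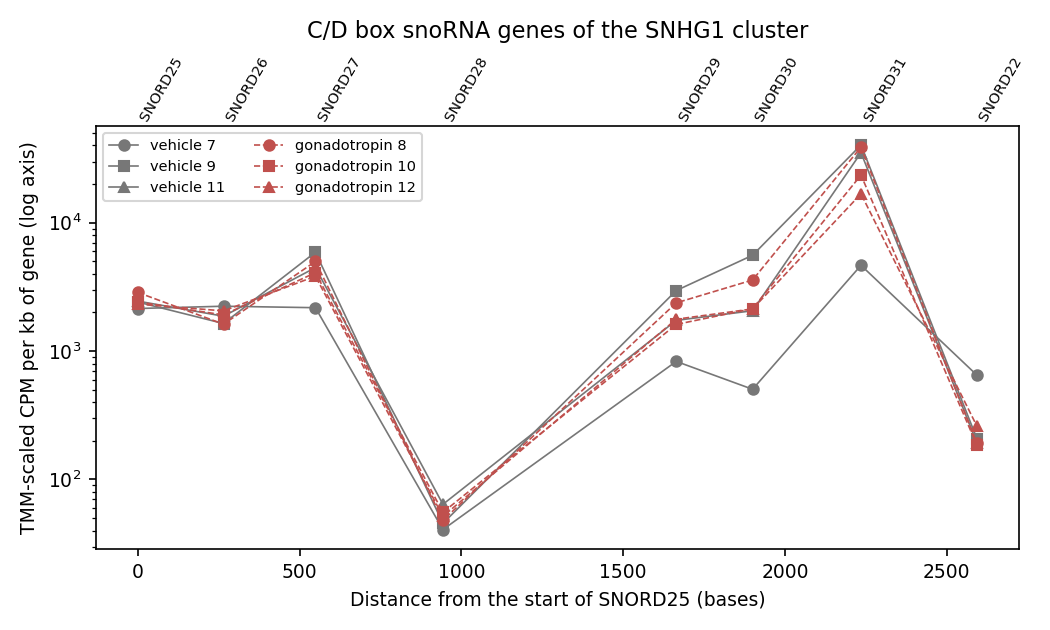
TMM-scaled CPM per kb of gene (log axis) is plotted against distance along the SNHG1 cluster for its 8 tested C/D box snoRNA genes, 1 line per library. Lines of 5 libraries run close together, while vehicle 7 is well below them at SNORD27, SNORD29, SNORD30 and SNORD31, near the rest at SNORD25, SNORD26 and SNORD28, and highest at SNORD22.

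Against 165 of all 717 tested genes, 11 of the 114 tested members were highest in vehicle 7. They are SNORD50 of chromosome 11, SNORD26, SNORD22 of chromosome 14, the SNORD15 row at 67550426, the SNORD88 row at 46167293, SNORD43 of chromosome 2, the SNORD46 rows of chromosome 3 and of an unplaced scaffold, both SNORD109A rows, and SNORD2 of chromosome 9. They were listed after their values were seen, and both SNORD46 rows may share reads, as may both SNORD109A rows.

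Copies of 1 name on different chromosomes differed in how they varied. For 11 names, tested rows lay on more than 1 chromosome or scaffold, and in 8 of them the other rows deviated less far downward in vehicle 7, or further upward, than the most abundant row. SNORD46 of chromosome 1 had 96.3, 112 and 101 CPM with vehicle and 69.4, 93.7 and 69.2 CPM with gonadotropin. Its log2 fold change was -0.41 (SE 0.34, 95% interval -1.18 to 0.36). The row of chromosome 3 had 72.8, 17.0 and 24.4 CPM against 16, 15.7 and 31.3 CPM, and the scaffold row 73.6, 17.7 and 26.0 CPM against 17.6, 16 and 34.4 CPM. These 2 rows followed each other and were set by vehicle 7, which lay more than 2-fold above every other library. Their counts were close, at 167 and 169 in vehicle 7 and 40 and 44 in gonadotropin 8. They may thus share reads, though they fell outside the 5% limit used here for near-identical copies. Their log2 fold changes were -0.85 (SE 0.61) and -0.78 (SE 0.61), and 0.04 and 0.07 without vehicle 7.

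In SNORD43, unlike SNORD46, it was the most abundant row that varied more. That row, on chromosome 10, had 95, 578 and 218 CPM against 569, 142 and 176 CPM. The row of chromosome 2 had 61.4, 35.5 and 61.2 CPM against 55.7, 36.8 and 50.2 CPM. The SNORD2 row of chromosome 9 had 2745, 848 and 2293 CPM with vehicle and 382, 1857 and 770 CPM with gonadotropin. Vehicle 7 was its highest library and gonadotropin 8 its lowest. Its log2 fold change of -0.97 (SE 0.64, 95% interval -2.43 to 0.49, unadjusted p = 0.166 by edgeR) was the lowest of the members. SNORD50 had 47.1, 61.0 and 54.8 CPM against 107, 32.6 and 48.3 CPM on chromosome 4, with a log2 fold change of 0.20 (SE 0.49), and -0.14 (SE 0.45) on chromosome 11. SNORD81 of the scaffold had 630, 2109 and 1277 CPM against 1282, 583 and 1760 CPM, with a log2 fold change of -0.15 (SE 0.54).

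Near-identical copies, with counts within 5% of each other in every library, were 6 tested rows in 3 sets. SNORD67 and SNORD109A were described above. The third set is SNORD83 at 32395237 of chromosome 4 and on an unplaced scaffold, with 5.23, 39.2 and 17.2 CPM against 9.22, 27.5 and 3.09 CPM in both and a log2 fold change of -0.63 (SE 0.86). The SNORD83 row at 32399875 was separate, 19.6-fold higher per length, with a log2 fold change of -0.23 (SE 0.53). How reads that fit several copies were counted is not given in the sources used here, so values of such rows are uncertain.

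Members varied widely in how steady they were over the 6 libraries. The ratio of the highest to the lowest library ran from 1.24 in SNORD38 of chromosome 1 (15.7, 17.7 and 17.6 CPM against 14.4, 16.6 and 14.3 CPM) to 13.3 in the SNORD12 row at 15142033 of chromosome 10 (1.31, 17.4 and 10.8 CPM against 13.2, 10.2 and 9.27 CPM). The median ratio was 3.59, against 2.71 in tested genes that are no members. SNORD25 (1.33) and SNORD26 (1.38) were among the steadiest, and both SNORD83 copies (12.7), SNORD73 (11.7), SNORD42 (11.6) and SNORD30 (11.1) among the widest. The lowest library was gonadotropin 12 for the SNORD83 copies and vehicle 7 for the other 3. The SNORD12 row had 3 counts in vehicle 7 and the SNORD83 copies had 8 in gonadotropin 12, so these ratios rest on few reads. These members were picked by their range.

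The 45 members under the filter had at most 20 counts in any library. Their totals over the 6 libraries were 1 to 57 counts with a median of 6, and 16 had a total of 3 or fewer. Together they made up 0.180% of the counts of the members. With no filter, edgeR tested all 159 members and called 0, with 2 at an unadjusted p under 0.05 and a smallest adjusted p of 0.628. It called 3 of all 3083 genes, and their share at an unadjusted p under 0.05 was not counted. The smallest unadjusted p of a member in that edgeR fit was 0.0306, in SNORD2, whose rows had passed the filter. SNORD103 at 30009980 of chromosome 1 (ENSMMUG00000024535), which was under the filter, had 6, 20 and 16 counts with vehicle and 7, 5 and 3 with gonadotropin. In the authors' deposited table it had a log2 fold change of -1.52 with p = 0.0323 and an FDR of 1. It was singled out after its values were seen.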

How the data were processed

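Small RNA from whole testis of 3 vehicle and 3 gonadotropin animals was analysed. The authors deposited raw counts per small RNA gene (HTSeq, rheMac8) and per mature miRNA (miRDeep2), per the labels. The submitters' processing notes name HTSeq 0.6.1p1, Bowtie 1.1.2 and cutadapt 1.9.1. Not given in the sources used here are the strand and multi-mapping settings. The titles name Ion Torrent and the extraction protocol a stranded Illumina kit. From the authors' deposited edgeR exact test, the log2 values and p-values served for comparison only.

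Counts were filtered with filterByExpr (minimum count 10), which kept 717 of 3083 genes, and TMM factors were used. Groups were compared in edgeR 4.0.16 (R 4.3.3) by its robust quasi-likelihood fit, with Benjamini-Hochberg adjustment over the 717 genes and a threshold of 0.05. SE is the absolute log2 fold change over the square root of F. Levels are TMM-scaled CPM, and deviations use log2 CPM with a prior count of 2. Total counts were 2146412 to 3170784 per library, and the biological coefficient of variation was 46.2%. With 3 against 3 libraries an exact permutation test cannot go below 0.1. The test was checked on simulated counts of the 717 genes, where 5.97% of 67 called genes were unchanged and 0 were called with no gene changed.

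Members, role lists and host lists were chosen with earlier results of these data known. Named genes are the 8 smallest p in each direction, the 10 most abundant per length, the smallest p and most abundant of each list, and near-identical copies. Other genes with values were chosen after their values were seen. Limma 3.58.1 (voom) and DESeq2 1.42.0 served as alternatives. Sequences of the snoRNAs were not used here.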

Additional observations from a re-analysis of the deposited data

How the results depend on the processing

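The count of called C/D box snoRNA members was 0 in each of the 17 alternative analyses and in 1 more chosen after seeing the data, TMM scaling over these members alone. The median log2 fold change of the members was -0.22, and -0.13 to -0.25 under other scalings, filters, tests, age as a covariate and merged copies. With 1 library left out it ran from -0.43 (without vehicle 7) to 0.07 (without vehicle 9). The difference in the share of counts, gonadotropin minus vehicle, was -0.203 percentage points and ran from -0.975 to 0.357 with 1 library left out. With no filter 2 of 159 members had an unadjusted p under 0.05, the smallest of them in SNORD2. Without gonadotropin 8 and without gonadotropin 10 there were 2 in each, and without vehicle 7 there were 10. The share of all tested genes at that level was not counted in these fits, so these counts have no background beside them. Of the 114 tested members, 47 kept their sign in the 17 alternatives, 43 below 0 and 4 above (SNORD25, SNORD105 and both SNORD74 rows). Both SNORD74 rows may share reads. The authors' deposited table held 134 of the members, with 0 at an FDR under 0.05, 35 log2 fold changes above 0 and 99 below, and 1 p-value under 0.05 (the SNORD103 row under the filter, log2 fold change -1.52, p = 0.0323). No paired analysis was possible because the groups share no animal number and the labels name no pairs, so age was fitted as a covariate instead. Whether libraries were made in batches is not given in the sources used here. Depth limits the 45 members under the filter.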
